A study of Mus musculus with 6 samples.

Results

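The genes described here are 10 members of the NRF2 pathway and of the cystine and glutathione defence that it serves, chosen by symbol: Nfe2l2, Keap1, Slc7a11, Gclc, Gclm, Txnrd1, Srxn1, Nqo1, Gpx2 and Gpx4. All 10 were among the 18268 genes of the table, and 9 of them were among the 12072 genes that passed the filter on low values, at least 1 FPKM in at least 3 mice, and were tested. Transcript levels were measured by RNA sequencing of colorectal tissue from adult male C57BL/6 mice, all of which were given dextran sulfate sodium (DSS) for 7 days, a chemical that damages the mucosa and so causes colitis. Of these, 3 colitis mice received Berberine (BBR), a plant alkaloid, and 3 colitis mice received Sulfasalazine (SASP), a standard colitis drug, in both cases by gavage for 6 days. Neither healthy nor undosed DSS mice were analysed here, and each comparison therefore sets one drug against the other.

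NRF2, encoded by Nfe2l2, is a transcription factor that KEAP1 binds and delivers for degradation. Oxidants and electrophiles modify KEAP1, NRF2 then accumulates, and it activates genes for cystine uptake, glutathione and thioredoxin recycling and quinone reduction. Glutathione and thioredoxin feed the peroxidases that remove hydrogen peroxide and lipid peroxides, and in the colon these enzymes protect an epithelium that is exposed to microbes and, in colitis, to oxidants from leukocytes.

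The libraries were of similar approximate depth, 16400000 to 16800000 reads under BBR and 16800000 to 18200000 reads under SASP, and 11518 to 12307 genes per mouse reached 1 FPKM. No pair of mice shared more than 0.389% identical values, so none was a repeated deposit. BBR mouse 3 stood apart from its group, with a correlation across genes of 0.953 and 0.949 to BBR mice 1 and 2, which had 0.987 between them. Its correlation to SASP mice 1, 2 and 3 was 0.920, 0.953 and 0.944, so it was as close to SASP mouse 2 as to its own group. BBR mouse 1 also had 0.953 to SASP mouse 2. Over all tested genes 1069 of 12072 passed the threshold (an adjusted p under 0.05). Without BBR mouse 3 it was 4018 of 11878, and without any other single mouse 51 to 405 genes. Values without BBR mouse 3 are therefore given wherever they change a member's call, and are to be read beside these counts.

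The members did not move as a group. Among the 9 tested members, 5 had a higher and 4 a lower mean under BBR, with a median log2 fold change of 0.11 against 0.10 over all tested genes. Only Gpx2 passed the threshold, an adjusted p under 0.05 in limma over all tested genes, and it was lower under BBR. Over all tested genes 8.86% passed, 3.82% as higher and 5.04% as lower under BBR, so 1 of 9 members is near the background. That split depends on the fit: of all calls 43.1% were higher under BBR, against 65.9% without BBR mouse 3, 11.8% to 37.5% without any other mouse and 7.58% with the epithelial covariate described below. At an unadjusted p of at most 0.05 there were 4 of 9 members (Gpx2, Nfe2l2, Nqo1 and Gpx4), against 31.8% of all tested genes. Gpx2, however, stood far out in size: a ratio of group means at least as large in this direction was found in 1.45% of the tested genes. The groups did not overlap in 4 tested members, Gpx2 with BBR below SASP and Nfe2l2, Nqo1 and Gpx4 with BBR above SASP, where 37.9% of all tested genes had groups apart, 21.3% with BBR above and 16.6% with BBR below. Fold changes are of log2(FPKM + 1), BBR minus SASP, unless a ratio of mean FPKM is given. Such a change, also where written as rose or fell, is a difference between the drugs and not from an undosed state. FPKM are reads scaled to transcript length and to library size, so levels of different genes can be compared, though only roughly.

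**Figure D1:**
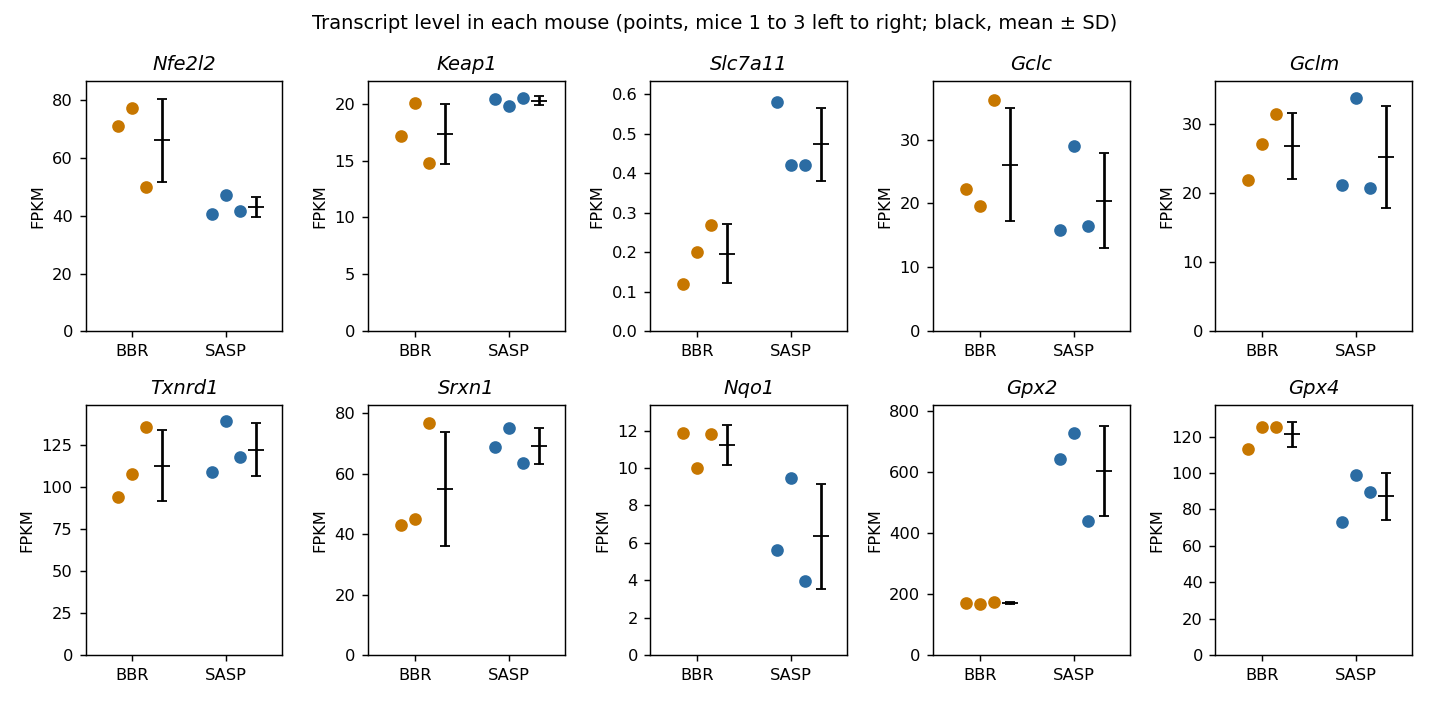
FPKM of each member in each mouse, with a scale of its own for each gene starting at 0; points are mice 1 to 3 of a group from left to right, and the black bar is the mean ± SD (n = 3). The 3 BBR values of Gpx2 lie between 167 and 173 FPKM, all below the lowest SASP value of 439 FPKM.

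Gpx2 (gene ID 14776) encodes the gastrointestinal glutathione peroxidase, a selenoprotein of the gut epithelium that reduces hydrogen peroxide and soluble lipid hydroperoxides. Its level was 171, 167 and 173 FPKM in BBR mice 1, 2 and 3, and 644, 728 and 439 FPKM in SASP mice 1, 2 and 3. The BBR mice were nearly alike and all lay below every SASP mouse, whose values spread more widely. BBR mice averaged 170 ± 2.98 FPKM and SASP mice 604 ± 149 FPKM (mean ± SD, n = 3 per drug), 3.55-fold higher under SASP. The log2 fold change was -1.79 (SE 0.19, 95% interval -2.24 to -1.33, limma adjusted p = 0.00707). Without SASP mouse 1 it was -1.73 and the adjusted p of limma was 0.0520, just over the threshold, and the call held without any other single mouse.

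Gpx4 (gene ID 625249) encodes the phospholipid hydroperoxide glutathione peroxidase, which reduces lipid peroxides within membranes and restrains ferroptosis. It was at 113, 125 and 126 FPKM under BBR, against 73.0, 98.7 and 89.5 FPKM under SASP. Each BBR mouse exceeded every SASP mouse, the opposite order to Gpx2. The means were 121 ± 6.94 and 87.1 ± 13.0 FPKM (mean ± SD, n = 3 per drug). The log2 fold change of 0.48 (SE 0.13, 95% interval 0.17 to 0.80) did not pass the threshold with all mice (limma adjusted p = 0.0645). It passed without BBR mouse 3 (0.46, limma adjusted p = 0.0471), where 4018 of 11878 tested genes did. Without any other single mouse it did not pass (limma adjusted p = 0.0787 to 0.199). For both genes RefSeq lists pseudogenes (Gpx2-ps1, Gpx4-ps1 and Gpx4-ps2) that the table does not hold, so how reads shared with them were divided is uncertain.

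Both peroxidases were also set against each other within each mouse. The ratio of Gpx2 to Gpx4 FPKM was 1.51, 1.34 and 1.38 in BBR mice and 8.81, 7.38 and 4.91 in SASP mice. The groups were far apart in this ratio, which was formed after the values of both genes were seen and was given no test. Gpx1, the cytosolic peroxidase of most cells, was at 216, 174 and 289 FPKM under BBR, against 227, 215 and 196 FPKM under SASP, with overlapping groups. Gpx2 made up 27.5% to 31.8% of the summed FPKM of the 6 peroxidase genes in the table (Gpx1, Gpx2, Gpx3, Gpx4, Gpx7 and Gpx8) in BBR mice, and 57.1% to 67.4% in SASP mice. Gpx1 was the most abundant of these transcripts in every BBR mouse and Gpx2 in every SASP mouse. The summed FPKM was 525 to 628 in BBR and 768 to 1080 in SASP mice.

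**Figure D2:**
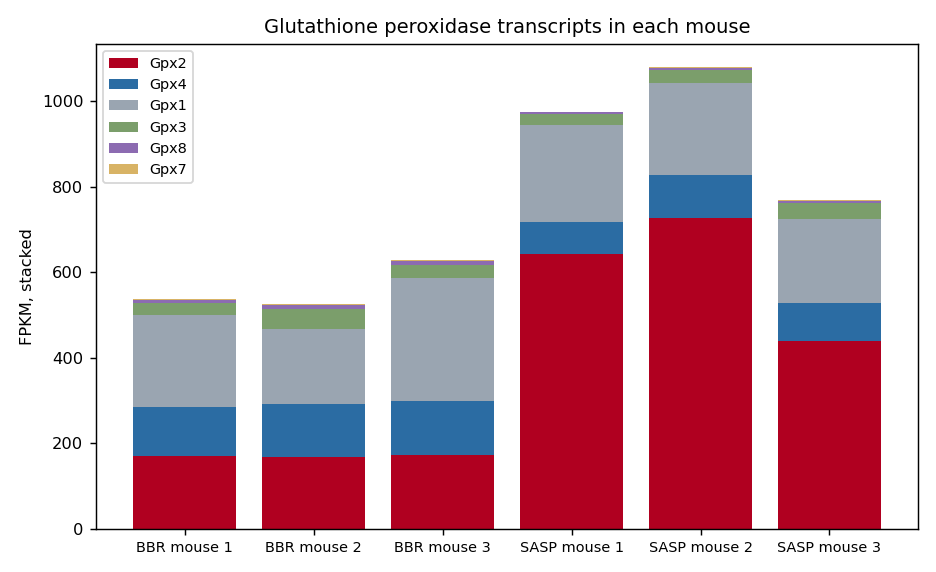
Stacked FPKM of the 6 glutathione peroxidase genes in each of the 6 mice, with the bars starting at 0. The Gpx2 segment takes 57.1% or more of each SASP bar and 31.8% or less of each BBR bar, while the Gpx4 segment is the larger in BBR mice.

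Nfe2l2 (gene ID 18024) was at 71.1, 77.5 and 50.03 FPKM under BBR, against 40.7, 47.1 and 41.8 FPKM under SASP. Each BBR mouse exceeded every SASP mouse, but BBR mouse 3 was close to SASP mouse 2. The means were 66.2 ± 14.4 and 43.2 ± 3.43 FPKM (mean ± SD, n = 3 per drug), a log2 fold change of 0.58 (SE 0.17, 95% interval 0.18 to 0.99, limma adjusted p = 0.0746). It passed the threshold without BBR mouse 3 (0.77, limma adjusted p = 0.00409), where 4018 of 11878 tested genes did. Without any other single mouse it did not pass (limma adjusted p = 0.127 to 0.230). Keap1 (gene ID 50868), the adaptor that marks NRF2 for degradation, was at 17.2, 20.03 and 14.8 FPKM under BBR, against 20.4, 19.8 and 20.5 FPKM under SASP. Its groups overlapped through BBR mouse 2, and the change was -0.22 (95% interval -0.52 to 0.08, limma adjusted p = 0.265). The ratio of Nfe2l2 to Keap1 FPKM, again formed after the values were seen, was 4.13, 3.87 and 3.38 in BBR and 1.99, 2.38 and 2.04 in SASP mice. Within every mouse the transcript of the factor was more abundant than that of its inhibitor, by a larger margin in each BBR mouse than in any SASP mouse. NRF2 is controlled mainly through its protein, which was not measured here.

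Slc7a11 (gene ID 26570) encodes the xCT chain of the cystine and glutamate exchanger, which supplies the cysteine for glutathione. It was the lowest member, at 0.12, 0.20 and 0.27 FPKM under BBR, against 0.58, 0.42 and 0.42 FPKM under SASP, and fell below the filter. Each BBR mouse was under every SASP mouse, as in 4.10% of the 3491 genes under the filter that were above 0 in all mice, of which 23.6% had groups apart in either direction. The mean was 2.41-fold higher in SASP mice. On a transcript of 9223 bases these values correspond to about 18, 30 and 42 reads in BBR and 95, 70 and 65 reads in SASP mice, at the approximate depth given above. When all genes were tested with no filter, the log2 fold change was -0.30 (limma adjusted p = 0.0734). With a pseudocount of 0.1, nearer to its own level, it was -0.97 (limma adjusted p = 0.102), so the call was not reached on either scale. Slc3a2, the heavy chain that carries xCT to the membrane, was at 37.8, 41.7 and 30.6 FPKM under BBR, against 36.1, 32.4 and 37.9 FPKM under SASP, far above Slc7a11 in each mouse, and its groups overlapped.

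Gclc (gene ID 14629) and Gclm (gene ID 14630) encode the catalytic and modifier subunits of glutamate-cysteine ligase, the rate-limiting enzyme of glutathione synthesis. Gclc was at 22.3, 19.7 and 36.2 FPKM under BBR, against 15.8, 29.0 and 16.5 FPKM under SASP. Gclm was at 21.9, 27.2 and 31.4 FPKM under BBR, against 21.2, 33.7 and 20.7 FPKM under SASP. For both genes BBR mouse 3 and SASP mouse 2 were the highest of their groups, and the groups overlapped. The log2 fold change of Gclc was 0.34 (95% interval -0.36 to 1.04, limma adjusted p = 0.447). That of Gclm was 0.11 (95% interval -0.40 to 0.62, limma adjusted p = 0.753), and its sign turned without BBR mouse 3 (-0.0089) or SASP mouse 3 (-0.011). These intervals leave room for changes of either sign, so a difference was not detectable with 3 mice per group.

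Txnrd1 (gene ID 50493) encodes the cytosolic thioredoxin reductase, a selenoprotein that keeps thioredoxin reduced. It was at 93.9, 108 and 135 FPKM under BBR, against 109, 139 and 118 FPKM under SASP. The groups overlapped, with a change of -0.12 (95% interval -0.51 to 0.26, limma adjusted p = 0.622). Srxn1 (gene ID 76650) encodes sulfiredoxin, which repairs overoxidised peroxiredoxins. It was at 43.0, 45.0 and 76.9 FPKM under BBR, against 68.8, 75.3 and 63.7 FPKM under SASP. BBR mice 1 and 2 lay below every SASP mouse and BBR mouse 3 above them all. The change was -0.37 (95% interval -0.90 to 0.15, limma adjusted p = 0.280). Without BBR mouse 3 it was -0.64 and passed the threshold (limma adjusted p = 0.00642), as did 4018 of 11878 tested genes. Without any other single mouse it did not pass (limma adjusted p = 0.370 to 0.584).

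Nqo1 (gene ID 18104) encodes the quinone reductase that is often taken as the readout of NRF2 activity. It was at 11.9, 9.98 and 11.8 FPKM under BBR, against 5.63, 9.45 and 3.97 FPKM under SASP. Each BBR mouse exceeded every SASP mouse, although SASP mouse 2 came close. The means were 11.2 ± 1.08 and 6.35 ± 2.81 FPKM (mean ± SD, n = 3 per drug), 1.77-fold higher in BBR. The log2 fold change of 0.80 (SE 0.26, 95% interval 0.18 to 1.42) did not pass the threshold (limma adjusted p = 0.0934). It did so without SASP mouse 2 (1.09, limma adjusted p = 0.0434), where 405 of 11899 tested genes passed. Leaving out any other single mouse, it did not pass (limma adjusted p = 0.0949 to 0.259).

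**Figure D3:**
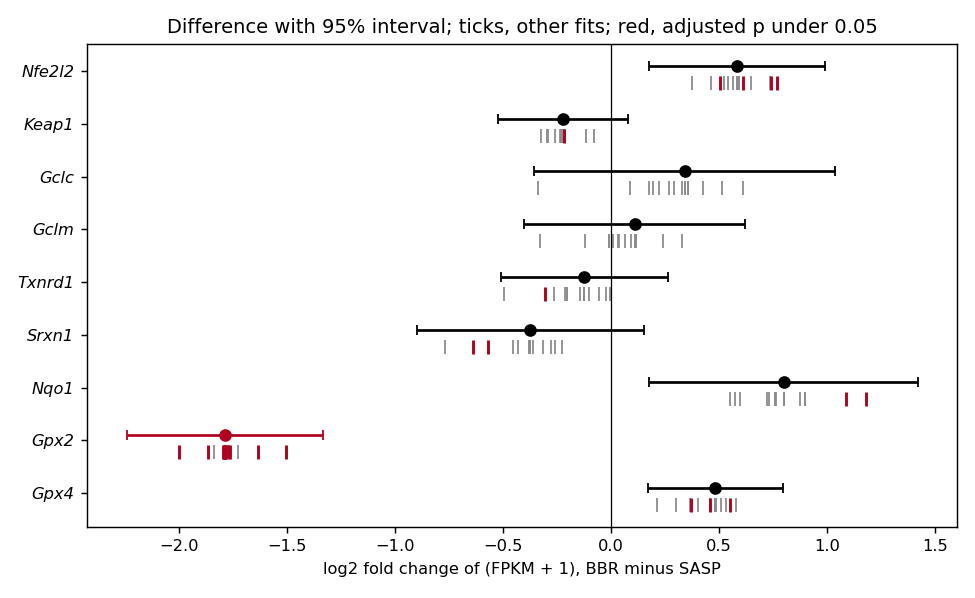
Log2 fold change of (FPKM + 1), BBR minus SASP, of the 9 tested members, as a point with its 95% interval; the ticks below each point are the same quantity in the other fits, and red marks an adjusted p under 0.05. Gpx2, at -1.79, is the only member whose point is red, and the intervals of Nfe2l2, Nqo1 and Gpx4 lie above 0 without passing after adjustment.

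By mean FPKM in BBR mice the order was Gpx2, Gpx4, Txnrd1, Nfe2l2, Srxn1, Gclm, Gclc, Keap1, Nqo1 and Slc7a11. In SASP mice Gpx4 and Txnrd1, and Nfe2l2 and Srxn1, changed places, and the order was Gpx2, Txnrd1, Gpx4, Srxn1, Nfe2l2, Gclm, Gclc, Keap1, Nqo1 and Slc7a11. Gpx4 and Txnrd1, Nfe2l2 and Srxn1, and Gclm, Gclc and Keap1 were neighbours whose values overlapped between mice in at least 1 group. In 7 of the 10 members BBR mouse 3 had the highest value of its group, which held for 22.8% of all tested genes. In 8 of the 10 members SASP mouse 2 had the highest value of its group, which held for 46.6% of all tested genes. The exceptions were Keap1 and Slc7a11 for SASP mouse 2, and Nfe2l2, Keap1 and Nqo1 for BBR mouse 3.

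To see whether the tissue held the cells in which these genes are known to act, marker lists were examined. Their counts stand beside 8.86% of all tested genes past the threshold and 31.8% at an unadjusted p of at most 0.05. Epcam, the defining surface antigen of epithelium, was at 943 to 1044 FPKM under BBR, against 833 to 1101 FPKM under SASP. The 8 epithelial markers had a median change of 0.03, with a summed level of 5689 to 6224 FPKM under BBR, against 5991 to 7192 FPKM under SASP. Of these 8 markers 5 were higher and 3 lower, with 4 at an unadjusted p under 0.05. All 3 lower markers had groups apart, as did 1 of the higher and 37.9% of all tested genes. Past the threshold Krt18 rose (0.75, limma adjusted p = 0.0163) and Vil1 fell (-0.55, limma adjusted p = 0.0327). With the epithelial score as a covariate the log2 fold change of Gpx2 was -1.84 (limma adjusted p = 0.0699), as large as without it but no longer past the threshold. All 9 smooth muscle markers had higher means under BBR (median 1.29, 0 passed by limma, 6 at an unadjusted p under 0.05), and their summed level was 2774, 2853 and 6581 FPKM under BBR, against 703, 2212 and 1617 FPKM under SASP. When the smooth muscle score was the covariate instead, the change of Gpx2 was -1.77 (limma adjusted p = 0.110), and in both covariate fits 0 members passed the threshold, with 1 and 4 at an unadjusted p of at most 0.05, where 15.6% and 17.1% of all tested genes were. Stromal markers were higher in 8 of 8 cases (median 0.82, 4 passed) and pan-leukocyte markers lower in 6 of 6 (median -0.74, 0 passed by limma, 4 at an unadjusted p under 0.05). The absorptive colonocyte list was higher in 5 of 7 cases (median 0.31, 1 passed, Cyp2c55), the goblet cell list in 7 of 7 (0.17, 0 passed and 0 at an unadjusted p under 0.05) and the endothelial list in 5 of 5 (0.69, 1 passed, Emcn). The macrophage list was higher in 3 of 7 cases (median -0.14, 0 passed) and the granulocyte list in 1 of 5 (-0.51, 1 passed, S100a8). The T cell list had 1 higher and 1 lower tested gene (median 0.02, 0 passed). It was near the floor, with a summed level of 3.21 to 6.29 FPKM over all mice. S100a8 was at 0, 0 and 6.19 FPKM under BBR, against 18.5, 20.6 and 23.1 FPKM under SASP (limma adjusted p = 0.0365). The summed granulocyte level overlapped between the groups, at 234, 192 and 567 FPKM under BBR, against 357, 536 and 454 FPKM under SASP. Most of that sum was Ly6g alone, at 232, 190 and 552 FPKM under BBR, against 329, 505 and 417 FPKM under SASP. S100a9, like S100a8, was lower in each BBR mouse than in any SASP mouse. It was at 0.11, 0.11 and 5.25 FPKM under BBR, against 6.91, 7.19 and 10.7 FPKM under SASP (limma adjusted p = 0.0746). The groups of Csf3r and Cxcr2 overlapped. What part these cell types have in the members' differences was not tested. In bulk tissue, fewer cells of a type and less RNA per cell cannot be told apart.

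**Figure D4:**
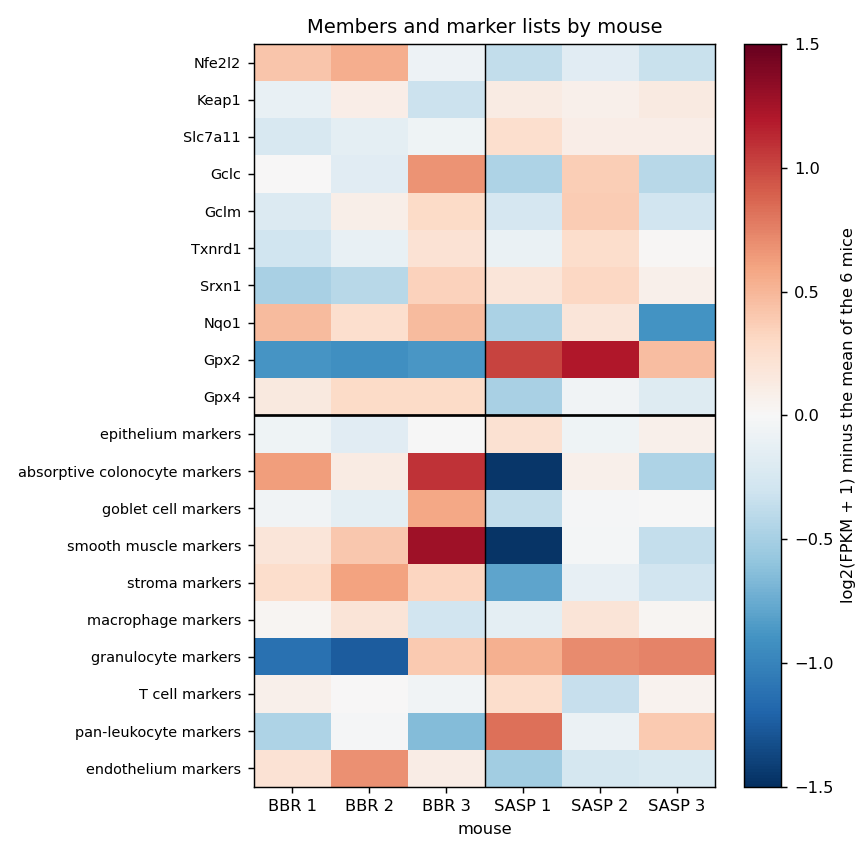
Log2(FPKM + 1) in each mouse minus the mean of the 6 mice, for the 10 members above the line and the mean of the tested genes of each marker list below it; columns are mice. Gpx2 is uniformly low in the 3 BBR mice, Gclc and Srxn1 are high in BBR mouse 3, and the smooth muscle markers are highest in that mouse and lowest in SASP mouse 1.

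Other genes of the pathway were then read from the same fit, in which 8.86% of all tested genes passed and 31.8% had an unadjusted p of at most 0.05. Of 11 NRF2 partners and regulators 7 were higher and 4 lower (median 0.05), and 0 passed in limma, with 2 at an unadjusted p under 0.05. Mafg, a small MAF protein with which NRF2 binds DNA, had the smallest p, at 12.9, 16.4 and 11.5 FPKM under BBR, against 7.67, 9.48 and 8.92 FPKM under SASP (0.58, limma adjusted p = 0.0630). Of 23 other tested NRF2 target genes 14 were higher and 9 lower (median 0.07), 1 rose and 1 fell, and the rest did not pass. Ugdh, which makes the UDP-glucuronate used in conjugation, was higher under BBR, at 276, 286 and 159 FPKM against 89.9, 107 and 103 FPKM in SASP mice (1.21, SE 0.23, limma adjusted p = 0.0289). Gsr, glutathione reductase, was lower under BBR, at 33.5, 37.7 and 33.3 FPKM against 66.1, 69.6 and 60.9 FPKM in SASP mice (-0.89, SE 0.10, limma adjusted p = 0.00826). The groups did not overlap, and the call was lost without SASP mouse 1 or 3 and with the epithelial (limma adjusted p = 0.0602) or smooth muscle covariate (0.124). Hmox1, the haem oxygenase that is a classical NRF2 target, was at 2.78, 2.48 and 6.85 FPKM under BBR, against 2.84, 7.92 and 3.64 FPKM under SASP, with overlapping groups and the highest values again in BBR mouse 3 and SASP mouse 2. Hmox1, Slc3a2, Gpx1 and Epcam fall outside the rule for named genes and were chosen after their values were seen.

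Of 18 genes of glutathione supply and recycling 10 were higher and 8 lower (median 0.05), and 3 passed, all lower under BBR. Over all tested genes 8.86% passed, 5.04% as lower, and 31.8% had an unadjusted p of at most 0.05. Besides Gsr, which is also in the list of targets, these were Lap3 and Ggct. Lap3, a leucine aminopeptidase that can split cysteinylglycine, was at 30.3, 27.2 and 29.9 FPKM under BBR, against 140, 103 and 147 FPKM under SASP (-2.11, SE 0.15, limma adjusted p = 0.00171), and its call held without any single mouse and with the epithelial covariate, but not with the smooth muscle covariate (limma adjusted p = 0.0560). Ggct, gamma-glutamylcyclotransferase, was at 1.13, 2.28 and 1.86 FPKM under BBR, against 3.86, 3.95 and 5.17 FPKM under SASP (-0.96, limma adjusted p = 0.0354), and it no longer passed when any mouse but BBR mouse 3 was left out. Of the 4 other glutathione peroxidases in the table all 4 were higher in BBR (median 0.23), with 0 past the threshold in limma and 1 at an unadjusted p under 0.05. This gene, Gpx8 of the endoplasmic reticulum, was at 7.32, 9.59 and 9.95 FPKM under BBR, against 3.68, 5.61 and 6.08 FPKM under SASP (0.71, limma adjusted p = 0.0660).

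The counts of the next lists also stand beside 8.86% of all tested genes past the threshold and 31.8% at an unadjusted p of at most 0.05. Of 12 thioredoxin and peroxiredoxin genes 5 were higher and 7 lower (median -0.04), and 1 passed. Txnip, which binds and inhibits thioredoxin, was higher under BBR, at 792, 740 and 545 FPKM against 299, 363 and 434 FPKM in SASP mice (0.92, SE 0.20, limma adjusted p = 0.0402). Of 4 superoxide dismutase and catalase genes 3 were higher and 1 lower (median 0.23), 0 passed in limma and 1, Sod1, had an unadjusted p under 0.05 (0.30, limma adjusted p = 0.133). Since Gpx2, Gpx4 and Txnrd1 are selenoproteins, their shared machinery was read as well. Of 10 tested genes of selenoprotein synthesis and transport 4 were higher and 6 lower (median -0.04), 0 passed in limma and 1, Scly, which frees selenium from selenocysteine, had an unadjusted p under 0.05 (-0.37, limma adjusted p = 0.0875). Of 12 other selenoproteins 6 were higher and 6 lower (median 0.06), and 2 rose, Selenom (0.80, limma adjusted p = 0.0470) and Msrb1, a methionine sulfoxide reductase (0.60, limma adjusted p = 0.0482). Of 14 tested genes of lipid peroxidation and ferroptosis 9 were higher and 5 lower (median 0.15), and 1 rose, Vdac3, a channel of the outer mitochondrial membrane (0.66, limma adjusted p = 0.0344). Ugdh, Txnip, Selenom, Msrb1 and Vdac3 likewise kept their calls only without BBR mouse 3, among the 6 fits that each left out a mouse. With the epithelial or smooth muscle covariate these 5 genes and Ggct did not pass, at limma adjusted p between 0.168 and 0.339. All 6 also lost the call with no filter on low values, Ggct with a minimum mean of 5 FPKM, Selenom with median-ratio scaling or no variance trend, and Msrb1 with these, quantile normalization or a pseudocount of 0.1. The list medians are small beside their range over the alternatives, which included both signs in 6 of the 9 lists.

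**Figure D5:**
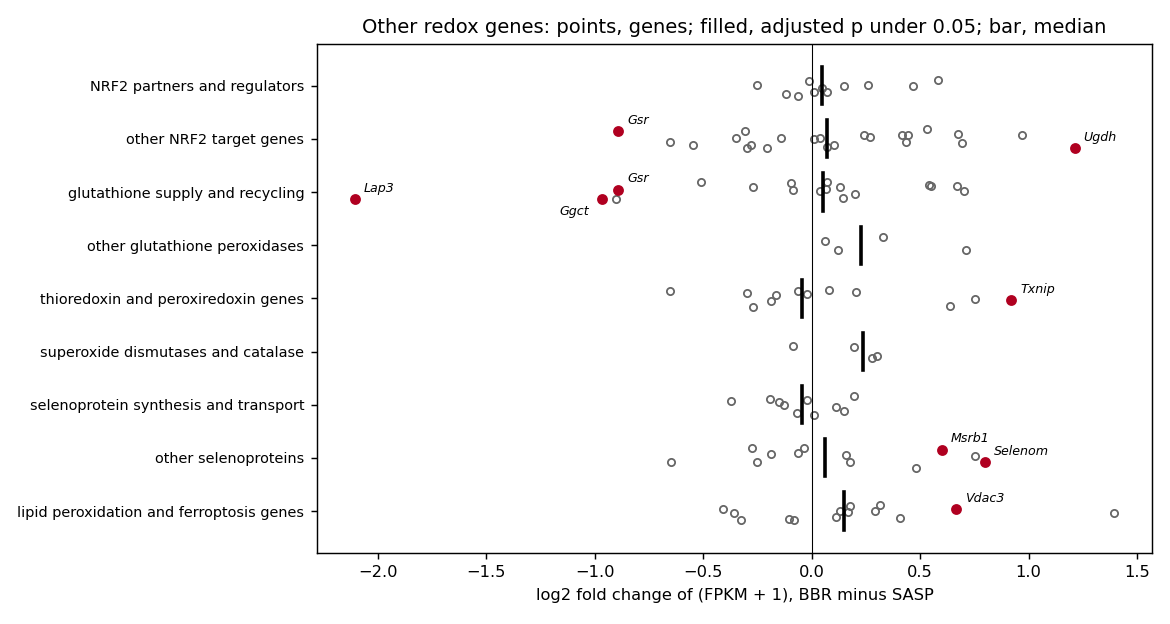
Log2 fold change of (FPKM + 1), BBR minus SASP, of every tested gene in 9 lists of related redox genes; filled red points passed the threshold and are named, open points did not, and the vertical bar is the list's median. All medians lie between -0.04 and 0.23, and the glutathione supply list holds 3 red points, all below 0.

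Promoter windows were compared because these genes are grouped by a shared regulator, a search chosen after results were seen. Windows from 250 bases before to 50 bases after the start site were taken from RefSeq (GRCm38.p6) for 9 of the 10 members, 14 windows in all, and searched on both strands for the core of the antioxidant response element to which NRF2 and small MAF proteins bind, written as TGACNNNGC or TGAGNNNGC. A match occurred in 5 of the 14 member windows (35.7%), against 27.8% of all 32851 promoter windows of this length. Counted by gene, 5 of the 9 members held one in any window, against 30.8% of all 27025 genes, namely Nfe2l2, Slc7a11, Gclm, Txnrd1 (in 1 of its 3 windows) and Srxn1. It did not occur in the windows of Gpx2, Nqo1, Keap1 or Gpx4, which says only that these letters are not in these windows. Srxn1 held 3 matches, of which TGAGTCAGC began 45 bases before the start site. The windows of 4 members are shown 5′ to 3′ in the direction of the gene, with matches on either strand in capitals: Gpx2 as the member that passed the threshold, Slc7a11 as the other member lower in every BBR mouse, Nfe2l2 as the factor itself, and Srxn1 as the window with the most matches. They lie at chr12:76795505-76795804 (minus strand), chr3:50443564-50443863 (minus strand), chr2:75704614-75704913 (minus strand) and chr2:152105274-152105573 (plus strand).
Gpx2: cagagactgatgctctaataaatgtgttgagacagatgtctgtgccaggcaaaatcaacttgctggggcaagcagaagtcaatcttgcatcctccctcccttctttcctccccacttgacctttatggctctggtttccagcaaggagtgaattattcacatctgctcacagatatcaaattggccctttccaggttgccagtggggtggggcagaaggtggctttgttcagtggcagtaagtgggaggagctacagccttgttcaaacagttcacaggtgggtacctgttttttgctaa
Slc7a11: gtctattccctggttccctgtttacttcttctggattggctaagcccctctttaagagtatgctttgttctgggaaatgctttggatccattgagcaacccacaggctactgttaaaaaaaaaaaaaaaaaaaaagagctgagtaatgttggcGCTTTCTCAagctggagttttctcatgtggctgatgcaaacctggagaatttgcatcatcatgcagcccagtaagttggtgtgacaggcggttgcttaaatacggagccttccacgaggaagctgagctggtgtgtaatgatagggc
Nfe2l2: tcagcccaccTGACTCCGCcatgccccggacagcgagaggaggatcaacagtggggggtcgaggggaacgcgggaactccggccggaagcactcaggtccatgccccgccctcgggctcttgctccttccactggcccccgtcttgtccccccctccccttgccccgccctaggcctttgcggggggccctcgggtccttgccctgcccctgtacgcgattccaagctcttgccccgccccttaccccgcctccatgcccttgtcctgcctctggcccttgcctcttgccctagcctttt
Srxn1: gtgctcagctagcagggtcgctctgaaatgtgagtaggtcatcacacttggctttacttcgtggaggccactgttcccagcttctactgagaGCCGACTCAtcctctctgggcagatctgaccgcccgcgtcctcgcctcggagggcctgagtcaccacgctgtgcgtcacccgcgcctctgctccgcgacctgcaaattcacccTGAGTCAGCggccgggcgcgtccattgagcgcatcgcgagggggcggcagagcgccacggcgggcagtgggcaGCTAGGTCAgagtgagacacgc

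Members with and without a match were found on either side. Among the members with a match Nfe2l2 was higher in every BBR mouse, Slc7a11 lower in every BBR mouse, and Gclm, Txnrd1 and Srxn1 had overlapping groups. Among those without one Gpx2 was lower, and Nqo1 and Gpx4 higher, in every BBR mouse.

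Genes with the most similar pattern over the 6 mice were listed as a description, from 12072 tested genes. For Nfe2l2 these were Trim41, Tbc1d24 and Pcnx3 (Pearson r of 0.999, 0.998 and 0.998), and 784 genes had r above 0.95. For Slc7a11 they were Ckap4, Sprr2a2 and Bex3 (r of 0.997, 0.996 and 0.992), and for Gpx2 Cmah, Gm42226 and Anapc15 (r of 0.992 for each), with 107 and 154 genes above 0.95. They share the same 6 libraries and the difference between the groups, so such values are common and were given no test.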

How the data were processed

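Total RNA of colorectal tissue was sequenced from 3 BBR and 3 SASP mice, grouped by the treatment label. The paper speaks of rectal samples for its BBR sequencing and of colon samples for its SASP sequencing. A difference in segment, if there was one, could not be told apart from the drug. Replicate numbers follow accession order and pair no mice. The deposited table holds FPKM values that the authors calculated with RSEM 1.2.12 after Bowtie2 2.2.5 alignment, and the submitters' processing notes name mm9 as the build. The annotation is not given in the sources used here. The study's methods describe depletion of ribosomal RNA and short single-end reads filtered with SOAPnuke, while the labels name another library kit. RSEM divides reads shared by near-identical sequences, and since Gpx2 and Gpx4 have pseudogenes, their values carry that uncertainty. Promoter windows come from GRCm38.p6, not mm9, and no coordinates were converted.

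FPKM were transformed as log2(FPKM + 1), which understates changes of low genes. Genes with at least 1 FPKM in at least 3 mice were compared with limma 3.58.1 (R 4.3.3), moderated by empirical Bayes with a trend on mean level, two-sided, with Benjamini-Hochberg adjustment over all tested genes and a threshold of 0.05. Each p-value sets the group difference against the spread between these mice, moderated across genes. A difference between the groups other than the drug is not part of that spread. With 3 mice per drug the smallest p of an exact permutation test is 0.10, so none was used. Alternatives were another pseudocount or filter, no trend, quantile or median-ratio scaling, array weights, marker covariates and leaving out each mouse. Members and lists were chosen with earlier results of these data known. All 10 members were named, and from each of the 9 redox lists up to 3 genes past the threshold, or otherwise the gene with the smallest p, apart from 4 exceptions marked in the text. Marker lists are described by counts and medians, and some also by summed levels. From some of them genes past the threshold were named, and from the granulocyte list all tested genes. Depth was estimated from genes seen in 1 mouse only with transcripts under 1500 bases (GENCODE M21), taking the typical value as 1 read, and is approximate.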

Additional observations from a re-analysis of the deposited data

How the results depend on the processing

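Of 144 alternative fits of the 9 tested members, 123 kept direction and side of the threshold, 13 newly passed it, 3 lost the call and 5 changed sign, with the cause not tested. The 123 overstate stability. With no filter, a minimum mean of 5 FPKM or no variance trend the fold change equals that of the main fit by construction. A member that did not pass also keeps its side easily in fits where few genes pass. The 3 lost calls were those of Gpx2 described above (-1.84, -1.77 and -1.73), whose change lay between -2.00 and -1.51 in all alternatives. Gclc turned to -0.34 with the smooth muscle covariate. Gclm turned to -0.12 with the epithelial covariate and -0.33 with the smooth muscle covariate, and ranged from -0.011 to 0.33 over left-out mice. The count of members past the threshold was 3 with quantile normalization (Nfe2l2 and Gpx4 joined), 2 with median-ratio scaling (Nfe2l2 joined), 7 with array quality weights, 0 with either covariate, 4 at an unadjusted p of at most 0.05 (Nfe2l2, Nqo1 and Gpx4 joined), and 0 to 4 over left-out mice, with 0 without SASP mouse 1, 2 without SASP mouse 2 and 4 without BBR mouse 3. Without SASP mouse 1, 3 members had an unadjusted p under 0.05, where 20% of all tested genes did.

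These counts of members are to be read beside the calls over all tested genes, 1069 of 12072 in the main fit. The calls became 608 of 18260 with no filter, 1737 of 12072 with quantile normalization and 1697 of 12078 with median-ratio scaling. With array quality weights they were 7126 of 12072, and with the epithelial and smooth muscle covariates 66 and 19 of 12072. At an unadjusted p of at most 0.05 they were 3837 of 12072. Over left-out mice they ranged from 51 of 11917 (without SASP mouse 3) to 4018 of 11878 (without BBR mouse 3). They were 59 of 11948 without SASP mouse 1 and 405 of 11899 without SASP mouse 2. The median of the other NRF2 target genes ranged from -0.13 (smooth muscle covariate) to 0.32 (without SASP mouse 2), that of the thioredoxin list from -0.16 (minimum mean of 5 FPKM) to 0.21 (array weights) and that of selenoprotein synthesis from -0.17 to 0.24 (epithelial and smooth muscle covariates). The fit with no filter and a pseudocount of 0.1, given for Slc7a11, was added after seeing the data. No paired analysis was possible because replicate numbers only name a mouse. Covariate fits and fits without a mouse have fewer degrees of freedom. Slc7a11 rests on few reads.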
